A study of Chlamydomonas reinhardtii with 4 samples.

Results

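Transcripts of 4 gene models of acetate and central carbon metabolism were followed in Chlamydomonas reinhardtii, a single-celled green alga, over 96 h without nitrogen. They were chosen by name and model number, with no measured value in the rule. They are 4 of the 14557 models on the array, and with 3 oligonucleotides each, called slots 1, 2 and 3, they make up 12 of 43671 probes. All RNA came from wild-type strain cc3491 in TAP, a medium that supplies acetate. On each of 4 arrays the Cy3 dye carried RNA of early stationary cells in complete medium (0 h), and the Cy5 dye carried RNA of cells moved to TAP lacking nitrogen for 24, 48, 72 or 96 h in constant light. Acetate was thus present in both channels, and no group without acetate was compared. Per the series record 3 biological replicates went into each pool, and a time point was a single array with no replicate check. Cy3 held the 0 h RNA on every array, so a fixed dye effect of a probe cannot be told apart from a change.

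The isocitrate lyase ICL1 is read by gene model 191668's probes and corresponds to CHLRE_06g282800v5 in the RefSeq annotation of assembly Chlamydomonas_reinhardtii_v5.5. Gene model 24263's locus is CHLRE_03g149100v5. It is listed in one of the study's tables as the citrate synthase CIS2, the name used below, and in another as CMA2, a transmembrane protein. Gene model 194915's locus, CHLRE_12g514750v5, is a citrate synthase. Gene model 182461's locus is CHLRE_07g315050v5. Some tables list it as GLD2, a glucose-6-phosphate dehydrogenase, and others as GGH1, a gamma-glutamyl hydrolase, and a further model, 163301, is listed as GLD2 too. It is therefore called by its locus here.

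Citrate synthase joins acetyl-CoA to oxaloacetate and so opens both the citric acid cycle and the glyoxylate cycle. Isocitrate lyase splits isocitrate into succinate and glyoxylate, which bypasses the steps of the citric acid cycle that release CO2 and lets cells build sugars and amino acids from acetate. Glucose-6-phosphate dehydrogenase carries out the first step of the oxidative pentose phosphate pathway, a source of NADPH.

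Probe sequences were held here for the citrate synthase CHLRE_12g514750v5, 1 of the 4 members. They are shown because they are different oligonucleotides listed for the same model and their ratios differed in size. Which transcript each of them reads was not tested. The probes in slots 1 and 3 were designed for this array, and slot 2 carries a probe of the first-generation array. They had 60, 50 and 60 bases in slots 1, 2 and 3, with a G+C content of 45.0%, 58.0% and 50%, and shared 0 words of 12 bases. No base is capitalised, since no stretch was singled out, and the position of each probe in the transcript was not determined here.
Slot 1: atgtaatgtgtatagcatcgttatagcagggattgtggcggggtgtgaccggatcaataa
Slot 2: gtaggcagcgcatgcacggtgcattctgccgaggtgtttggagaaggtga
Slot 3: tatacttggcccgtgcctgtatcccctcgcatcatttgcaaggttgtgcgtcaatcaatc

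A probe is called detected below where the scanner software flagged it as well above background. Per array, 17101 to 18967 probes were detected at 0 h and 24239 to 26786 under starvation, and 398 to 441 and 341 to 410 were saturated. The label of nitrogen starvation was checked with 3 genes of nitrogen uptake and assimilation. The glutamine synthetase GLN3, the ammonium transporter AMT4 and the nitrite reductase NII1 were higher by 5.66, 5.36 and 4.21 on the log2 scale and ranked 1, 2 and 9 of 10772 tested models. The filter asked that a probe be detected in Cy5 on every array or in Cy3 on every array. Of the 12 member probes 11 passed it, of which 3 were saturated on at least 1 array and 8 on none. Directions were taken from these 8.

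Each ratio is log2 of starved over 0 h after normalization within the array, so it is relative to the bulk of transcripts, whose median over models averaged 0.048 on the 4 arrays. Signals given for a probe are raw medians of each dye, so their order between channels does not by itself give a direction. A probe was called when its mean over the 4 time points differed from 0 by limma at a Benjamini-Hochberg adjusted p under 0.05, over all 22132 probes past the filter, and by at least 2-fold. The spread behind each p and SD is that between time points, and the spread of the 0 h RNA is not covered. A change in RNA per cell could not be told apart from a change in the share of cells that held it. Over all tested probes 12.5% were called, 4.26% higher and 8.23% lower. A probe that passed the filter only through the channel in which it is bright may have been admitted because the channels differ. Members were therefore counted over the 7 unsaturated probes detected in both channels on every array. The fit for this count covered all 16264 probes detected in both channels on every array, saturated ones included. In it 3 of the 7 were called, 2 higher and 1 lower. Of the 16264 probes 16.3% were called, 5.29% higher and 11.0% lower. Among them 15634 were saturated on no array in either channel, and the shares over these alone were not computed. The 8th unsaturated probe, slot 3 of CHLRE_12g514750v5, passed only through the starved channel and is described below without being counted.

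**Figure D1:**
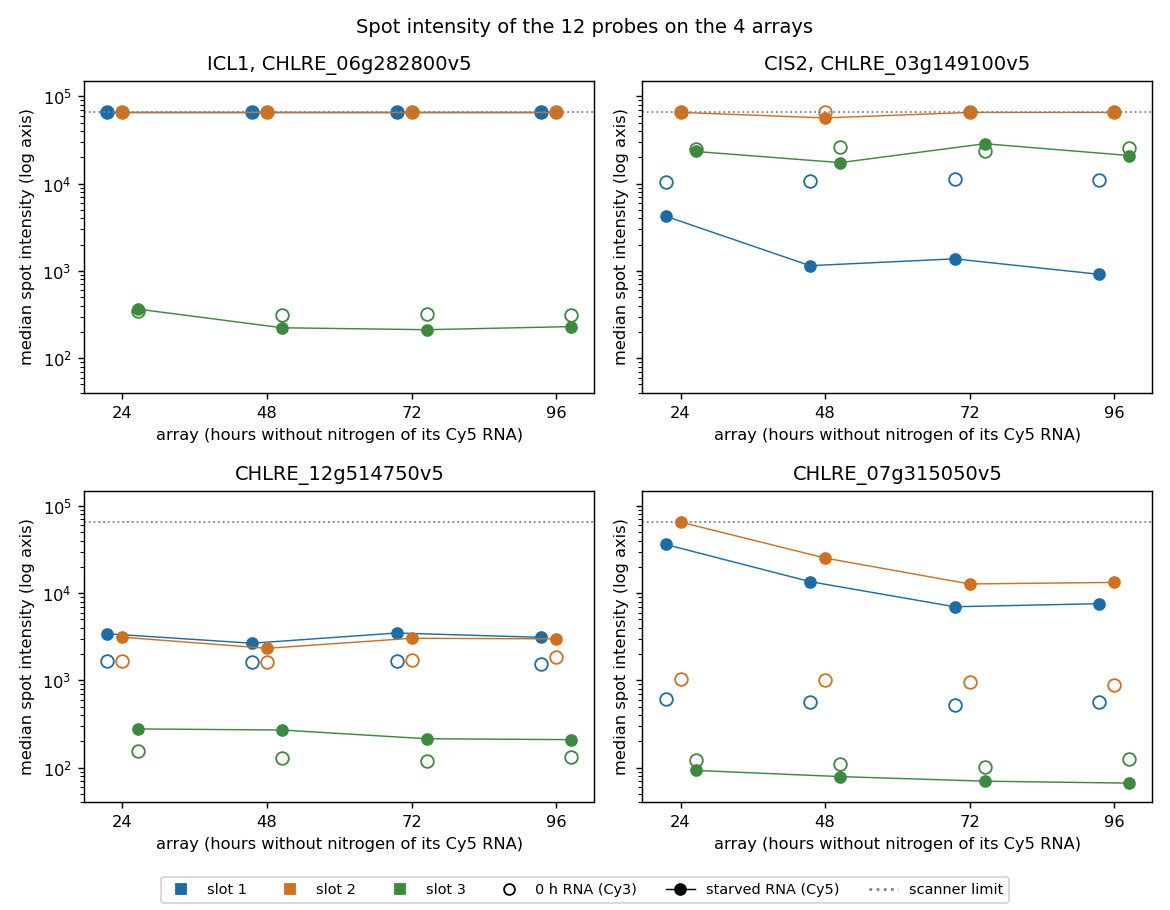
Median spot intensity (log axis) of the 12 probes on the 4 arrays, with open circles for the 0 h RNA (Cy3), filled circles joined by lines for the starved RNA (Cy5) and a dotted line at the scanner limit. ICL1 slots 1 and 2 lie on the limit in both channels on all 4 arrays, and in CHLRE_07g315050v5 slots 1 and 2 the starved signal lies above the 0 h signal on every array.

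ICL1 was at the upper limit of the scanner in most of its probes, at 0 h and under starvation alike. Slots 1 and 2 of ICL1 read 65529 in both channels on all 4 arrays and carried the saturation flag in both, so no fold can be given. Slot 3 was unsaturated and detected in both channels on every array, but far dimmer than slots 1 and 2. Which transcript each probe of ICL1 reads was not tested, and their sequences were not among those held here. At 0 h slot 3 read 347.5, 316, 317 and 309.5 on the 24, 48, 72 and 96 h arrays. Under starvation it read 365.5, 223, 212 and 230. The raw starved signal was the higher one on the 24 h array and the lower one on the other 3, and the raw ranges overlap. After normalization its log2 ratios were -0.20, -0.60, -0.73 and -0.51. Their mean, -0.51 ± 0.23 (SD, n = 4 time points), was below 0 by limma (adjusted p = 0.0166), at 1.42-fold, under the fold threshold. With median centring in place of loess the same probe was at -0.086 (limma adjusted p = 0.572), and with the spike-in intercepts described below it was past 2-fold, at -2.17 (limma adjusted p = 1.39e-06). Without the 48 h or the 96 h array the decrease did not pass the test (limma adjusted p = 0.0838 and 0.0609). The median over all 3 probes of ICL1, at 0.014 ± 0.077 (limma adjusted p = 0.865), came from the saturated pair and carries no direction.

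**Figure D2:**
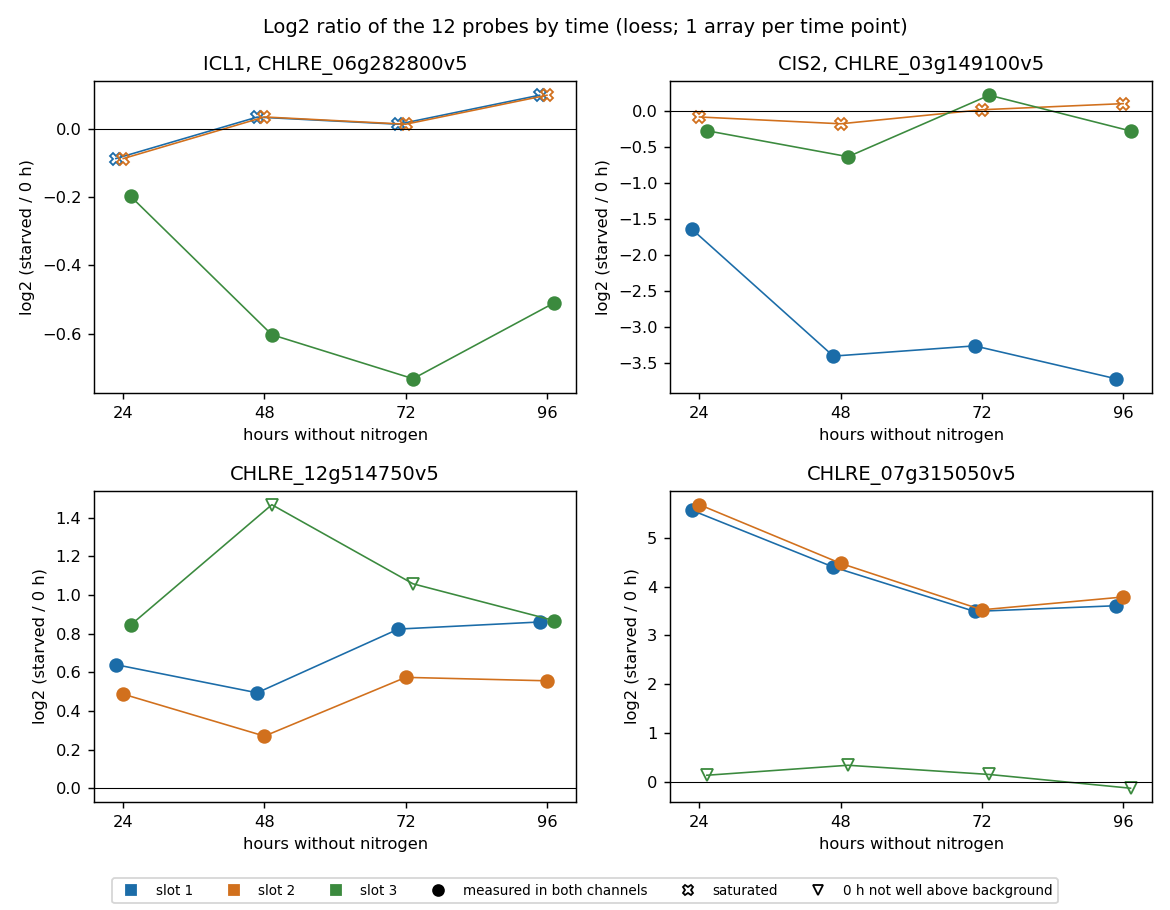
Log2 ratio of starved over 0 h RNA of the 12 probes at 24, 48, 72 and 96 h, with 1 array per time point and no error bars, since there were no replicates, and with a scale of its own in each panel. Crosses mark values saturated in at least 1 channel, which sit close to 0, triangles mark values without detection at 0 h, and slots 1 and 3 of CIS2 lie far apart.

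The probes of CIS2 disagreed. Slot 1 fell strongly. Its 0 h signal was steady, with 10552, 10585, 11300 and 11022 on the 4 arrays. Its starved signal was 4239.5 at 24 h, 1148 at 48 h, 1375 at 72 h and 914 at 96 h, below the 0 h signal on every array. The log2 ratios were -1.65, -3.40, -3.26 and -3.72, with the smallest decrease at 24 h. The mean was -3.01 ± 0.93 (SD, n = 4 time points), an 8.04-fold decrease (limma adjusted p = 0.00264), and ranked 125th from the bottom of 22132 probes. The SD of its 0 h log2 level over the arrays was 0.0355, against a median of 0.0705 over 16026 comparable probes.

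Slot 3 of CIS2 did not pass the test. It read 24729, 26007, 23608.5 and 25803 at 0 h and 23382, 17419, 28674.5 and 21004 under starvation, so the ranges overlap. Its log2 ratios were -0.28, -0.64, 0.21 and -0.28, with a mean of -0.25 ± 0.35 over the 4 time points (limma adjusted p = 0.238). Slot 2 was saturated at 0 h on all 4 arrays and under starvation at 24, 72 and 96 h. At 48 h its starved signal was 56686.5, unsaturated, which gives a decrease of at least 1.11-fold from channel values scaled after loess. This bound is open to dye bias.

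Slots 1 and 3 of CIS2 were both unsaturated and detected in both channels on every array, and the difference of slot 1 minus slot 3 was -2.76 on the log2 scale. Of 2946 models with both slots measured in this way, 15 (0.509%) had slots at least as far apart, and the median distance was 0.205. The value of the model depends on which probes are read. The median of all 3 probes was -0.30 ± 0.27 (limma adjusted p = 0.099), not called, while without the saturated probe it was -1.63 ± 0.50 (limma adjusted p = 0.00339), called. Which transcript each probe reads was not tested, and their sequences were not among those held here.

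**Figure D3:**
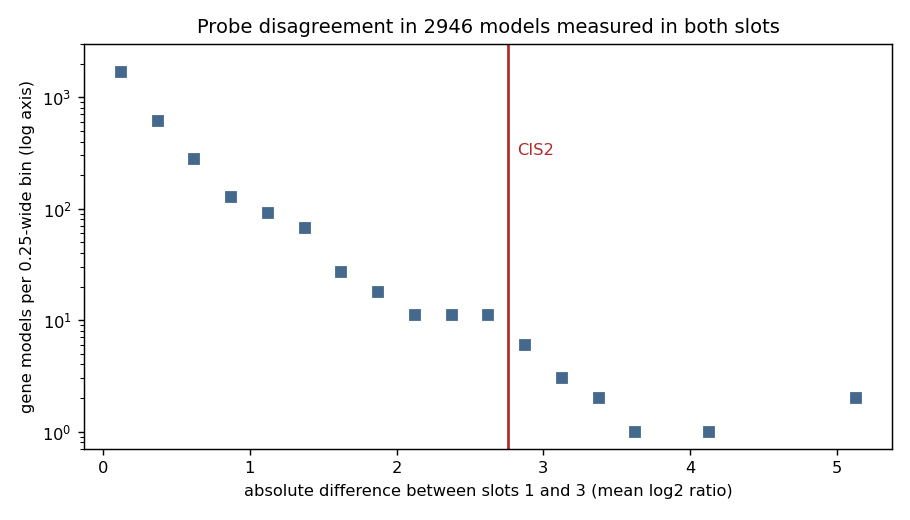
Number of gene models (log axis) by the absolute difference between the mean log2 ratios of their slot 1 and slot 3 probes, in bins of 0.25, over 2946 models with both probes unsaturated and detected. The vertical line marks CIS2, and 15 of the 2946 models lie at its distance or beyond.

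The citrate synthase CHLRE_12g514750v5 was higher under starvation by limma in slots 1 and 2, by less than 2-fold in both. Slot 1 read 1654, 1608, 1656 and 1540 at 0 h and 3424, 2667, 3493 and 3115 under starvation. The starved values were above all 0 h values, and the log2 ratios were 0.64, 0.49, 0.82 and 0.86. The mean was 0.70 ± 0.17 (SD, n = 4 time points), or 1.63-fold (limma adjusted p = 0.00338). Slot 2, the first-generation probe, read 1673, 1637, 1709 and 1833 at 0 h and 3127, 2332, 3039 and 2996 under starvation. Again no starved value was as low as a 0 h value, and 48 h was the lowest time point in both probes. Its log2 ratios of 0.49, 0.27, 0.57 and 0.56 averaged 0.47 ± 0.14, or 1.39-fold (limma adjusted p = 0.00921). The study left first-generation probes out of its own analysis, citing lower ratios in changed genes and a cross-hybridization potential of many such probes.

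The distance of 0.23 between slots 1 and 2 of CHLRE_12g514750v5 was common. Of 4132 models with these slots measured, 29.9% had them at least as far apart. Slot 3 was dim, with 156, 128, 120 and 134 at 0 h, detected on the 24 and 96 h arrays only. Under starvation it read 278, 270, 214.5 and 209.5, detected on all 4. Its log2 ratios of 0.84, 1.47, 1.06 and 0.87 averaged 1.06 ± 0.29 (limma adjusted p = 0.00268). The highest ratio was that of 48 h, an array on which its 0 h signal was not detected. The mean was 0.92 without the 48 h array, 0.71 with the spike-in intercepts and 2.27 from the deposited ratios, so no fold is given, and since the probe passed the filter only through the starved channel its call adds nothing to those of slots 1 and 2. The model as a whole, at 0.70 ± 0.17 (limma adjusted p = 0.0032), ranked 706 of 10772.

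CHLRE_07g315050v5 rose the most of the members and was among the most increased models of the array. Slot 1 read 606.5, 563, 523 and 565 at 0 h. Under starvation it read 36193 at 24 h, 13551 at 48 h, 6987 at 72 h and 7573 at 96 h. The lowest starved value was thus far above the highest 0 h value, and the starved signal was highest at 24 h. The log2 ratios were 5.56, 4.40, 3.49 and 3.61, with a mean of 4.27 ± 0.95 (SD, n = 4 time points), or 19.2-fold (limma adjusted p = 0.000966).

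Slot 2 of CHLRE_07g315050v5 gave a similar course. It read 1043, 1018, 955.5 and 890.5 at 0 h and 65263, 25237, 12745.5 and 13279 under starvation. The value of 65263 at 24 h carried no saturation flag but lay just under the limit of 65529. Its log2 ratios were 5.68, 4.48, 3.53 and 3.79, with a mean of 4.37 ± 0.96, or 20.6-fold (limma adjusted p = 0.000923). The probes ranked 22 and 20 of 22132 by mean ratio. Slot 1 minus slot 2 was -0.10, and 56.1% of 4132 models had these slots at least as far apart. The model stood at 4.32 ± 0.96 (limma adjusted p = 0.00111), rank 8 of 10772. It was the 1 member model called from all probes, where 9.65% of tested models were called. Slot 3 did not pass the filter. At 0 h it read 123, 109, 101 and 124.5 and was detected on 0 arrays, and under starvation it read 93, 79, 70 and 66.5, detected at 24 and 48 h. No fold is given for it.

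No member probe showed a trend over time that passed the test, where 41 of all 22132 probes did (0.185%). The steepest slopes of the members were -0.68 ± 0.15 (SE) per 24 h for slot 1 of CHLRE_07g315050v5 (limma adjusted p = 0.236), -0.66 ± 0.17 for its slot 2 (limma adjusted p = 0.264) and -0.61 ± 0.19 for slot 1 of CIS2 (limma adjusted p = 0.316). In the first pair the 24 h ratio was the farthest from 0, and in CIS2 it was the nearest to 0. From 24 to 96 h the SD of the starved log2 level was 1.03 and 1.04 in slots 1 and 2 of CHLRE_07g315050v5 and 0.909 in slot 1 of CIS2, against a median of 0.252 over 15634 probes. At 0 h the SDs of the same 3 probes over the arrays were 0.0825, 0.110 and 0.0355, all under the 90th percentile of 0.142. The dim slot 3 of CHLRE_12g514750v5 had an SD of 0.237 at 0 h, above that percentile.

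The size of several changes depended on how the arrays were scaled. The deposited ratios, median centring and subtraction of the spike-in intercept placed the median of all models at 0.15, 0.22 and -1.42, so values are also given relative to that median. The spike-in intercept shifts all deposited ratios of an array alike, so relative to the median it gives the deposited values by construction and is not a further comparison. On this footing slot 1 of CHLRE_07g315050v5 was at 4.22 with loess, 4.46 from the deposited ratios and 4.44 with median centring. Slot 1 of CIS2 was at -3.06, -3.21 and -2.88 under the same scalings. Slot 1 of the citrate synthase CHLRE_12g514750v5 was at 0.66, 0.67 and 0.89. Slot 3 of ICL1 was at -0.56, -0.76 and -0.31. As plain ratios slots 1 and 2 of this citrate synthase turned to -0.74 and -0.99 with the spike-in intercepts, so their increase holds there only relative to other transcripts. Slots 1 and 2 of CHLRE_07g315050v5 stayed above 0, at 3.04 and 3.00, and slot 1 of CIS2 stayed below, at -4.63. The spike-in intercept is the scanner software's estimate of the shift of control transcripts added to each labelling, and it was 0.778 to 2.21 on the log2 scale.

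**Figure D4:**
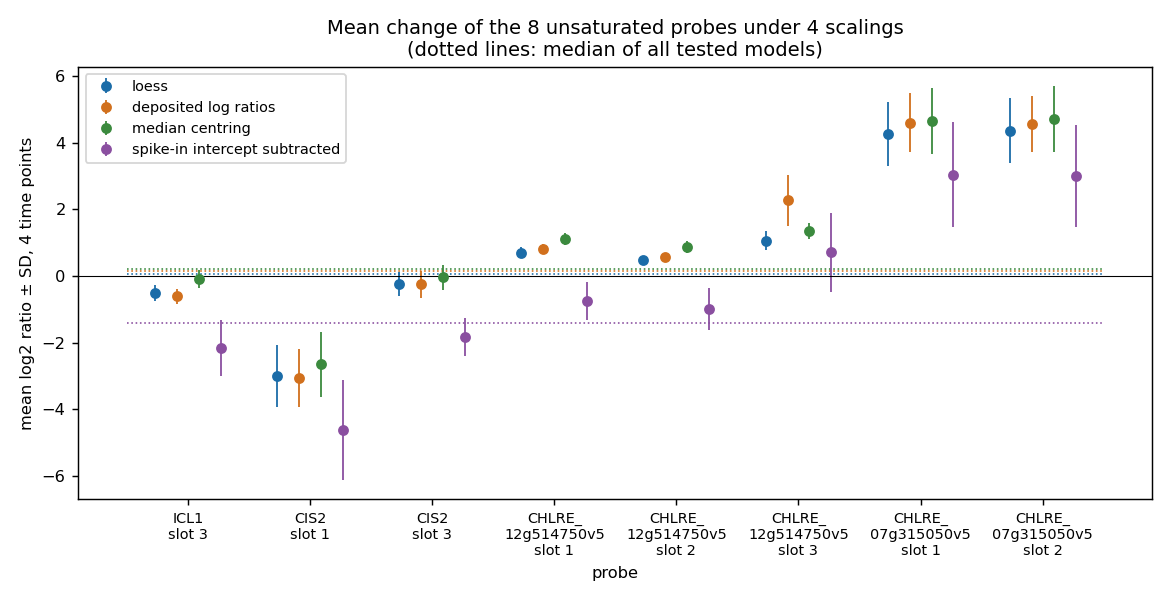
Mean log2 ratio of the 8 unsaturated member probes under 4 scalings, with bars for the SD over 4 time points and dotted lines for the median of all tested models under each scaling. Slots 1 and 2 of CHLRE_07g315050v5 lie above 0 and slot 1 of CIS2 below 0 under all 4, while slots 1 and 2 of CHLRE_12g514750v5 lie below 0 when the spike-in intercept is subtracted.

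Models with the most similar course were sought by the root mean square difference of log2 ratios over the 4 arrays, among 7361 models with at least 2 probes past the filter. For CHLRE_07g315050v5 the nearest was NII1, at a distance of 0.612, with 4.55, 4.29, 3.88 and 4.13 at 24, 48, 72 and 96 h. NII1 was thus lower than this model at 24 and 48 h and higher at 72 and 96 h. The next were model 195735 (CHLRE_12g556228v5) at 0.779 and model 180430 at 0.83. The citrate synthase CHLRE_12g514750v5 had closer neighbours, models 186105, 184911 and 206220, at 0.0461, 0.051 and 0.0648.

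For ICL1, read by slot 3 alone, the nearest were models 185004, 146877 and 158129, at 0.0469, 0.0815 and 0.0845. For CIS2, read by slots 1 and 3, they were models 131692, 59709 and 192961 (listed as the light-harvesting protein LHCA7), at 0.0891, 0.111 and 0.126. Read by slot 1 alone, a choice made after the values were seen, the nearest to CIS2 were models 112775, 183986 and 146197, at 0.323, 0.451 and 0.468.

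Enzymes around the members were read from lists of acetate activation, the glyoxylate cycle, the citric acid cycle, the oxidative pentose phosphate pathway and carboxylation. Names were available for 1820 models, and 13 models other than the members matched. No match came from the glyoxylate cycle list, so its enzymes beyond the members were not examined. All 13 were tested, and 2 were higher, 4 lower and 7 not called, with a median of -0.076 against 0.051 over all models, of which 3.47% were called higher and 6.17% lower. With the spike-in intercepts the tally was 0 higher, 11 lower and 2 not called, and all 7 models not called by loess were then lower. In that setting 8200 of all 10772 tested models were called lower and 118 higher, so the tally is not particular to these enzymes. Of the 13, 4 were named by the probe annotation, of which 0 were called, and 9 by the study's own tables of starvation genes, of which 6 were called. Those tables list genes for their change in this study's experiments, so the count is not independent evidence of a direction.

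Acetate enters metabolism through a transporter and is turned into acetyl-CoA either by acetyl-CoA synthetase or by acetate kinase together with phosphate acetyltransferase. Of these, the putative acetate transporter, model 115491, was lower, with -0.31, -1.03, -1.40 and -1.41 at 24 to 96 h and a mean of -1.04 ± 0.52 (limma adjusted p = 0.0158). With median centring it was at -0.56 and not called. The synthetase ACS1 (194063) was at 0.013, the phosphate acetyltransferase PAT1 (11226) at 0.099 and the acetate kinase ACK1 (129982) at -0.28, none of them called. Slots 1, 2 and 3 of PAT1 were detected at 0 h on 3, 3 and 1 of the arrays, so its ratio is uncertain. Slots 1 and 2 of ACK1, the probes past the filter, disagreed in sign, at -0.77 and 0.21. The signs of ACS1 and PAT1 turned with the spike-in intercepts, to -1.51 and -1.24, and that of ACK1 with median centring, to 0.037.

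In the citric acid cycle, the models listed as TEF25 and annotated as succinyl-CoA ligase, which turns succinyl-CoA into succinate, were both lower. Model 182361 was at -3.32 ± 0.35 (limma adjusted p = 0.00015) and model 56839 at -1.77 ± 0.57 (limma adjusted p = 0.00386). The succinate dehydrogenase model SDH1 (101516) was at -0.076 and not called, against -1.82 and called lower with the spike-in intercepts. Slots 1, 2 and 3 of SDH1 were detected at 0 h on 3, 0 and 1 of the arrays, so its ratio is uncertain. Phosphoenolpyruvate carboxylase, which makes oxaloacetate from phosphoenolpyruvate, had 3 listed models with different values. PEPC1 (185915) was called lower, but its median of -1.79 is the value of slot 1, saturated at 0 h on all 4 arrays, so it gives no size. The unsaturated slots 2 and 3 of PEPC1 were at -3.05 and -0.44, with a median of -1.75 ± 0.20 over the time points (limma adjusted p = 0.000245). PEPC2 (182821) was at 2.01 ± 0.15 and called higher, and another model listed as PEPC2 (80312) was at 0.34 and not called. The probes of model 80312 past the filter disagreed too, at 1.47 and -0.79. In model 182821 slots 1 and 2 were alike, at 2.12 and 2.10. Slot 3 of model 182821 was at -0.13 but was detected at 0 h on 1 of the 4 arrays, so that ratio is uncertain. Pyruvate carboxylase PYC (112730), which makes oxaloacetate from pyruvate, was at 0.18 and not called, with slot 3 its only probe past the filter. The signs of PYC and of model 80312 turned with the spike-in intercepts, to -1.36 and -1.04.

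In the oxidative pentose phosphate pathway the other model listed as GLD2, 163301, was higher by 1.84 ± 0.21 on the log2 scale (limma adjusted p = 0.000251). Its ratios were 1.62, 2.03, 2.01 and 1.71, so unlike in CHLRE_07g315050v5 the 24 h value was the lowest. By probe, slots 1, 2 and 3 of model 163301 averaged 1.91, 0.82 and 1.88, so slot 2 was under 2-fold. The 6-phosphogluconolactonase PGLS (101528), which acts in the next step, was not called, with -0.10 by loess and 0.13 by median centring, but was called lower at -1.78 with the spike-in intercepts. With the spike-in intercepts PEPC2 (182821) and GLD2 (163301) were at 0.63 and 0.45 and no longer called.

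**Figure D5:**
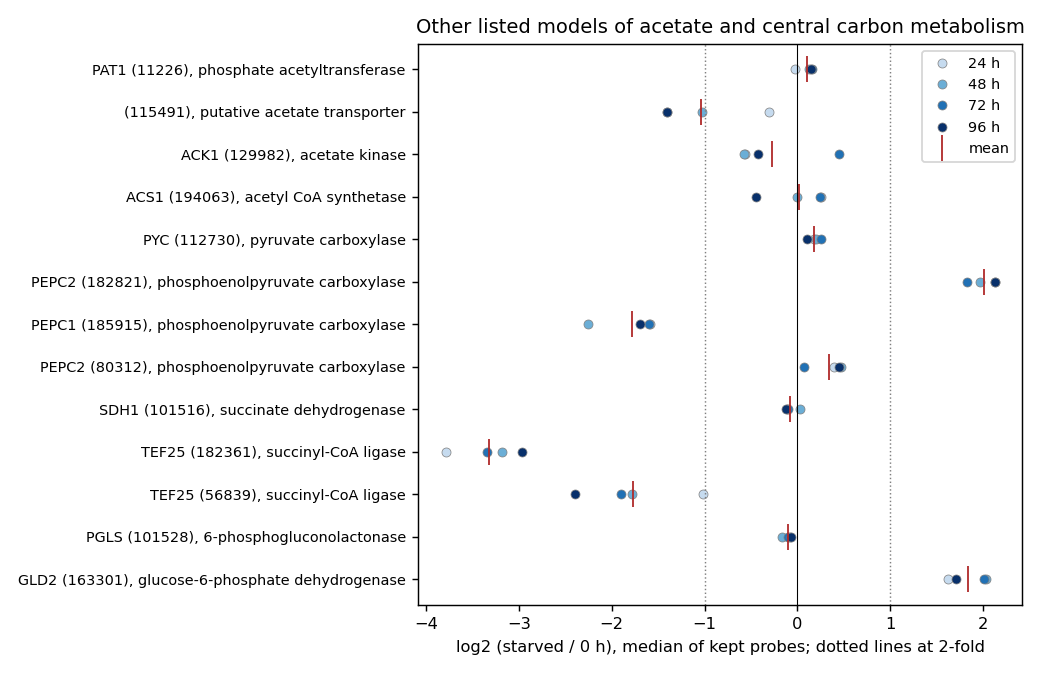
Log2 ratio of starved over 0 h RNA of the 13 listed models other than the members, with a point for each time point (median of the probes past the filter), a red tick for the mean and dotted lines at 2-fold. PEPC2 (182821) and GLD2 (163301) lie beyond 2-fold higher at all 4 time points, and the means of TEF25 (182361 and 56839) beyond 2-fold lower. The median drawn for PEPC1 (185915) is that of a probe saturated at 0 h.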

How the data were processed

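RNA of 5 time points was hybridised to 4 two-colour Agilent arrays on 1 slide. The deposited median intensity of each spot and its background, the flags and the log10 ratio came from Agilent Feature Extraction 10.7.3.1, and the log10 values in the authors' series table equalled the scanner's in 180872 of 180872 cases. Per the file headers these ratios are background-subtracted and dye-normalized, with substitute values for dim spots. Probes were designed on JGI gene models of another build than the RefSeq table, so loci are given by name.

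Intensities were corrected by normexp (offset 50) and normalized by loess (span 0.3, 4 iterations) in limma 3.58.1 (R 4.3.3), and tested with lmFit and eBayes, two-sided, with 3 residual degrees of freedom for the mean and 2 for the trend. Channel levels were scaled by Aquantile after loess. A model is the median of its probes past the filter. Scripts were tested on simulated data. Of 43801 non-control spots per array, 13 were flagged as outliers over all arrays. They were not removed before normalization, and 0 of them were among the probes past the filter. Normalization, background, filter, Holm adjustment, saturated probes, the summary of probes and each array were varied.

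Members and lists were chosen with earlier results of these data known. All 12 member probes are named, with every called list model, the 3 nearest models per member and 3 genes for the label check, and the 7 uncalled list models for completeness. Lists were matched through names in the study's annotation tables, which were held only in part, since the RefSeq table gives no product names.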

Additional observations from a re-analysis of the deposited data

Results flagged for a closer look

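Slot 3 of CIS2, unsaturated and detected on every array, was at 0.215 on the log2 scale at 72 h and at -0.638 at 48 h, opposite directions under the same comparison with 0 h. With 1 array per time point the difference was not tested. Slot 1 of the same model was at -3.26 and -3.40 on these arrays.

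Slot 3 of CHLRE_07g315050v5 did not pass the filter and enters no comparison, but its starved signal of 93 at 24 h and of 79 at 48 h was well above background by the scanner's flag, while its 0 h signal was so on 0 arrays. Its 0 h readings of 123 and 109 on the same arrays were the larger numbers, in the other dye. Slots 1 and 2 of the same model had ratios of 5.56 and 5.68 on the log2 scale at 24 h.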

How the results depend on the processing

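Each ratio already pairs starved and 0 h RNA on the same array, and with 1 array per time point no further pairing was possible. Values are mean log2 ratios. With Holm in place of Benjamini-Hochberg, CHLRE_07g315050v5 (4.32), its slots 1 and 2 (4.27, 4.37), CHLRE_12g514750v5 slot 3 (1.06) and CIS2 slot 1 (-3.01) were no longer called, and models called higher and lower fell from 374 and 665 to 65 and 134, probes from 942 and 1821 to 113 and 160. With the spike-in intercept subtracted, ICL1 was at -1.61, CHLRE_12g514750v5 at -0.74, CIS2 at -1.94, ICL1 slot 3 at -2.17, CHLRE_12g514750v5 slots 1 to 3 at -0.74, -0.99 and 0.71 and CIS2 slot 3 at -1.82. Calls then numbered 118 models higher and 8200 lower, and 291 probes higher and 16608 lower. Median centring raised CHLRE_12g514750v5 to 1.10 and its slot 1 to 1.11, both then called, and gave 823 models higher, 2155 probes higher and 1127 lower. The deposited ratios put ICL1 at -0.042 and gave 1032 models and 2382 probes higher. Without background subtraction CHLRE_12g514750v5 slot 3 was at 0.92. Without saturated probes ICL1 was at -0.51 and CIS2 at -1.63. The mean of the probes in place of their median put them at -0.16 and -1.10. The causes were not tested, apart from the saturated pair that sets the median of ICL1.

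Leaving out each array in turn gave 3.88 to 4.59 for CHLRE_07g315050v5, -0.014 (without 96 h) to 0.048 for ICL1, 0.65 to 0.77 for CHLRE_12g514750v5 and -0.40 to -0.18 for CIS2. It gave 310 to 398 models higher and 550 to 716 lower. For probes it gave 3.83 to 4.52 and 3.93 to 4.65 (CHLRE_07g315050v5 slots 1 and 2), -0.61 to -0.44 (ICL1 slot 3), 0.65 to 0.77, 0.44 to 0.54 and 0.92 to 1.13 (CHLRE_12g514750v5 slots 1 to 3), -3.46 to -2.77 (CIS2 slot 1) and -0.40 to -0.11 (CIS2 slot 3), with 813 to 1036 probes higher and 1537 to 1886 lower.

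Trend counts were unstable. Falling probes numbered 40, against 0 with the deposited ratios, 5930 with spike-in intercepts, 70 with an offset of 1, 91 without the filter and 0 to 414 with an array left out. Rising probes numbered 1, against 0, 20, 0 and 15 in the same settings, 0 with median centring, 0 with the filter in both channels and 0 to 234 with an array left out. The counts of 414 and 234 came without the 72 h array, where CHLRE_07g315050v5 slot 1 was at -0.61 per 24 h and passed (limma adjusted p = 0.0396). With an array left out the slope of ICL1 slot 3 ran from -0.27 to 0.047 (without 24 h) and that of CHLRE_12g514750v5 slot 3 from -0.30 to 0.11 (without 96 h), with 0.022 without 48 h. With spike-in intercepts the slopes of CHLRE_12g514750v5 slots 1 and 2 and CIS2 slot 3 turned to -0.39, -0.45 and -0.40, and those of CHLRE_07g315050v5 slots 1 and 2 and CIS2 slot 1 passed the test at -1.14, -1.10 and -1.10, as did that of CHLRE_12g514750v5 slot 3 at -0.68 (limma adjusted p = 0.0311).

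Each time point rests on 1 array. Saturated spots give no size, and dim 0 h spots such as those of CHLRE_12g514750v5 slot 3 give an uncertain one.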
